A study of Mus musculus with 8 samples.

Results

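Promoter H3K9 acetylation (H3K9ac) was examined at 40 genes of DNA replication and of its control by E2F, of 21951 protein-coding genes annotated. The genes were taken by name and not by their signal, although earlier results of these data were known when they were chosen. They comprise 12 genes of the replicative helicase, 9 of origin licensing, 12 of the polymerases and the fork, and 7 of the E2F and cyclin E module. H3K9ac had been profiled by ChIP-seq in frozen whole bone marrow (BM) cells of C57BL/6 mice, all of which carried the *NUP98-HOXD13* transgene (*tg*), a model of myelodysplastic syndrome that can progress to acute myeloid leukaemia. The mice expressed the human GFI1 form with serine (*GFI1-36S*) or with asparagine (*GFI1-36N*), or GFI1 at a reduced level (*GFI1-KD*). They received curcumin, a plant polyphenol that inhibits histone acetyltransferases, at 20 mg/kg every week by i.p. injection, or the DMSO vehicle. The age of the mice and the duration of treatment were not given in the sources used here. Each of the 3 genotypes had 1 vehicle and 1 curcumin library, 6 in all. Since every group was a single library, differences could not be checked against replicates and are given without p-values. The question of the comparison was whether curcumin shifts promoter acetylation in each *GFI1* background.

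Before each S phase, the origin recognition complex together with Cdc6 and Cdt1 loads the ring of Mcm2 to Mcm7 onto origins, and geminin (*Gmnn*) blocks Cdt1 from loading it again. Cyclin E with Cdk2 then helps to start the ring as a helicase with Cdc45 and the GINS complex, and the DNA polymerases follow with the clamp Pcna, its loader Rfc and the single-strand binding protein Rpa. Many of these genes are targets of the E2F factors, which the retinoblastoma proteins hold back in resting cells, and H3K9ac is a mark of active promoters.

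For each gene, the strongest peak within 1 kb of any transcription start site (TSS) was taken by its fold enrichment over the local background and ranked from 0 to 100 among the promoter peaks of its library. A rank is a relative level, so a higher rank can accompany a lower peak where most promoters are lower still. A gene was counted as higher or lower when its rank differed by 10 or more points. The number of fragments at each summit was recovered from the peak values, and the ratio of these numbers, relative to the median ratio of all promoters, was given a 95% exact interval that covers counting error only, since reads without molecular identifiers are not independent molecules. The labels name whole BM cells, while a title in the study names c-kit+ cells for this assay. With BM cells of mixed types, fewer cells of a type and less acetylation per cell cannot be told apart.

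The 6 libraries held 20354 to 49213 peaks and a median of 72 to 164 fragments at a promoter summit. The library labelled *GFI1-36S* curcumin stood apart. It had the fewest peaks, with 3 on chromosome Y where each of the other libraries had 0, and it lacked a promoter peak at all 15 neutrophil marker genes. The file names of the *GFI1-36S* pair carry the treatments the other way round. The labels were followed, and every change with curcumin in *GFI1-36S* mice below has the opposite sign if the names are right.

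The promoter sequences of 31 of the 40 genes were found in RefSeq for the build GRCm38.p6, which is the sequence of mm10, from 250 bases before to 50 after the RefSeq start. *Mcm4*, *Gins1*, *Gins2*, *Gins4*, *Pole*, *Rfc2*, *E2f4*, *Ccne2* and *Gmnn* had no entry. The letters of the E2F site, searched as TTTCCCGC, TTTCGCGC, TTTGCCGC or TTTGGCGC on both strands, were found in 15 of the 31 promoters (48.4%). Of 7458 genes with a promoter peak in every library and an entry, 4.84% held such a match. At least 2 matches were found in *Mcm3*, *Mcm5*, *Mcm6*, *Mcm7* and *Rfc3*, 5 of the 31 promoters, against 0.255% of the 7458 genes. The promoters of *Mcm3*, *Mcm5*, *Mcm6* and *Mcm7* are shown because they hold at least 2 matches and because the Mcm ring is described in detail below. *Mcm2* and *Mcm10* held no match and are not shown. The promoters of *E2f2* and *E2f3* are shown because both carry a match and had the largest opposite changes in *GFI1-36N* mice. The windows are *Mcm3* at chr1:20820263-20820562 on the minus strand, *Mcm5* at chr8:75109259-75109558 on the plus strand, *Mcm6* at chr1:128359656-128359955 on the minus strand, *Mcm7* at chr5:138171834-138172133 on the minus strand, *E2f2* at chr4:136172024-136172323 on the plus strand and *E2f3* at chr13:29986014-29986313 on the minus strand. Each is written 5′ to 3′ on the strand of the gene, with matches to the E2F letters in capitals, and matches that overlap run together.
Mcm3: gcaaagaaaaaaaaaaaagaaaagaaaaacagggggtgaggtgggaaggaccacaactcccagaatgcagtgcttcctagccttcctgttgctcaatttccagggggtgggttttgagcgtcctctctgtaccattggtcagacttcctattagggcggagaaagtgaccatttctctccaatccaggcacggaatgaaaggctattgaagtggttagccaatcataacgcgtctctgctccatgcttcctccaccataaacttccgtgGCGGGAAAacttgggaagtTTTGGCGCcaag
Mcm5: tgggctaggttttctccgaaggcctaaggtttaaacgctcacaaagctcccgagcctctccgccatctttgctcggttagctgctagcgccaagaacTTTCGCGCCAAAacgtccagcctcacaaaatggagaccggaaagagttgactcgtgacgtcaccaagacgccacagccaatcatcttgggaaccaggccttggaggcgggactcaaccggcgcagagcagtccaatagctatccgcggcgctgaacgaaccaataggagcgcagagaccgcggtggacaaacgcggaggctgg
Mcm6: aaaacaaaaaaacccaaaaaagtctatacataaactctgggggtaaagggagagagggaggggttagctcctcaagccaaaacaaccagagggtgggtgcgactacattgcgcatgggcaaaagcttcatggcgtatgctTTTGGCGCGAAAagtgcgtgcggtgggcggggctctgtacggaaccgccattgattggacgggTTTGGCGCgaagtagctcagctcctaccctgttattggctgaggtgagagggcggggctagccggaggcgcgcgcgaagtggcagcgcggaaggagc
Mcm7: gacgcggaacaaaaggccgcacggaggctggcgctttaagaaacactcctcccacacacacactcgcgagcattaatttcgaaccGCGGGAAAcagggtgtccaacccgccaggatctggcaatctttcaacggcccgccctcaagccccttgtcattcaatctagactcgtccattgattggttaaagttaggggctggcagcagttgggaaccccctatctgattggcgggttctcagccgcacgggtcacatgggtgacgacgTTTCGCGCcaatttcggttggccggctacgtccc
E2f2: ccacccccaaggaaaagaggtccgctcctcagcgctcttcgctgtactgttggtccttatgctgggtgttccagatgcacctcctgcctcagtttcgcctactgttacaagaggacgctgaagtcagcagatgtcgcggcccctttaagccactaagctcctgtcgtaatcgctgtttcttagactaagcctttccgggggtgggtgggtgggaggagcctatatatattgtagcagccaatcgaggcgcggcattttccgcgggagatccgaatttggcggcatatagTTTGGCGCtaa
E2f3: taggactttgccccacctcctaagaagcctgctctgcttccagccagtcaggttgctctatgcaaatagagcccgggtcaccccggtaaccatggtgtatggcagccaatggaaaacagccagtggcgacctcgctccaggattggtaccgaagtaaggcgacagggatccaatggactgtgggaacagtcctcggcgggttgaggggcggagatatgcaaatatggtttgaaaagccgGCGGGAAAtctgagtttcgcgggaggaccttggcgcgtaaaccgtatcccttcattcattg

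The matches in *Mcm5* and *Mcm6* included pairs on opposite strands that share bases. The letters CCAAT were found in 22 of the 31 promoters (71.0%), against 39.8% of the 7458 genes. The GC box GGGCGG was found in 24 and the MYC E-box CACGTG in 2 of the 31, against 68.4% and 11% of the 7458 genes. The CHR letters TTTGAA or TTCGAA, which are known from genes of G2 and M phase, were found in 6 of the 31, against 13.7%. The median GC content was 63.0% and 61.7%, respectively. A match is a description of the letters and not of a bound site.

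Each of the 40 genes carried a promoter peak in every library, as did 9341 protein-coding genes in all. In *GFI1-36S* mice their median rank was 64.3 with vehicle and 69.6 with curcumin. The values were 61.3 and 66.4 for *GFI1-36N* mice and 62.2 and 56.0 for *GFI1-KD* mice. The 9341 genes had median ranks between 51.8 and 60.0, so that the replication genes lay above them in 5 libraries and below them with curcumin in *GFI1-KD* mice, where the value of the 9341 genes was 57.0. The median summit of the replication genes held 91 to 186.5 fragments and the lowest 58, in the *GFI1-36S* curcumin library.

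The promoters spanned a wide range. The highest mean rank over the 6 libraries was found at *Cdt1* (88.5), the licensing factor, at *Rfc4* (86.6), a clamp loader subunit, and at *Gmnn* (85.8). *Cdt1* ranked 90.6 with vehicle and 98.2 with curcumin in *GFI1-36S* mice, and the values were 88.2 and 86.7 with *GFI1-36N* and 76.5 and 90.8 with *GFI1-KD*. The lowest mean rank was found at *Pola1* (28.7), the catalytic subunit of polymerase alpha on chromosome X, and at the GINS subunits *Gins1* (32.9) and *Gins3* (36.8). *Pola1* ranked 21.3 and 37.9 in *GFI1-36S* mice, 24.5 and 33.5 with *GFI1-36N* and 28.7 and 26.1 with *GFI1-KD*. *Pola1* ranked below *Cdt1* in each of the 6 libraries.

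**Figure D1:**
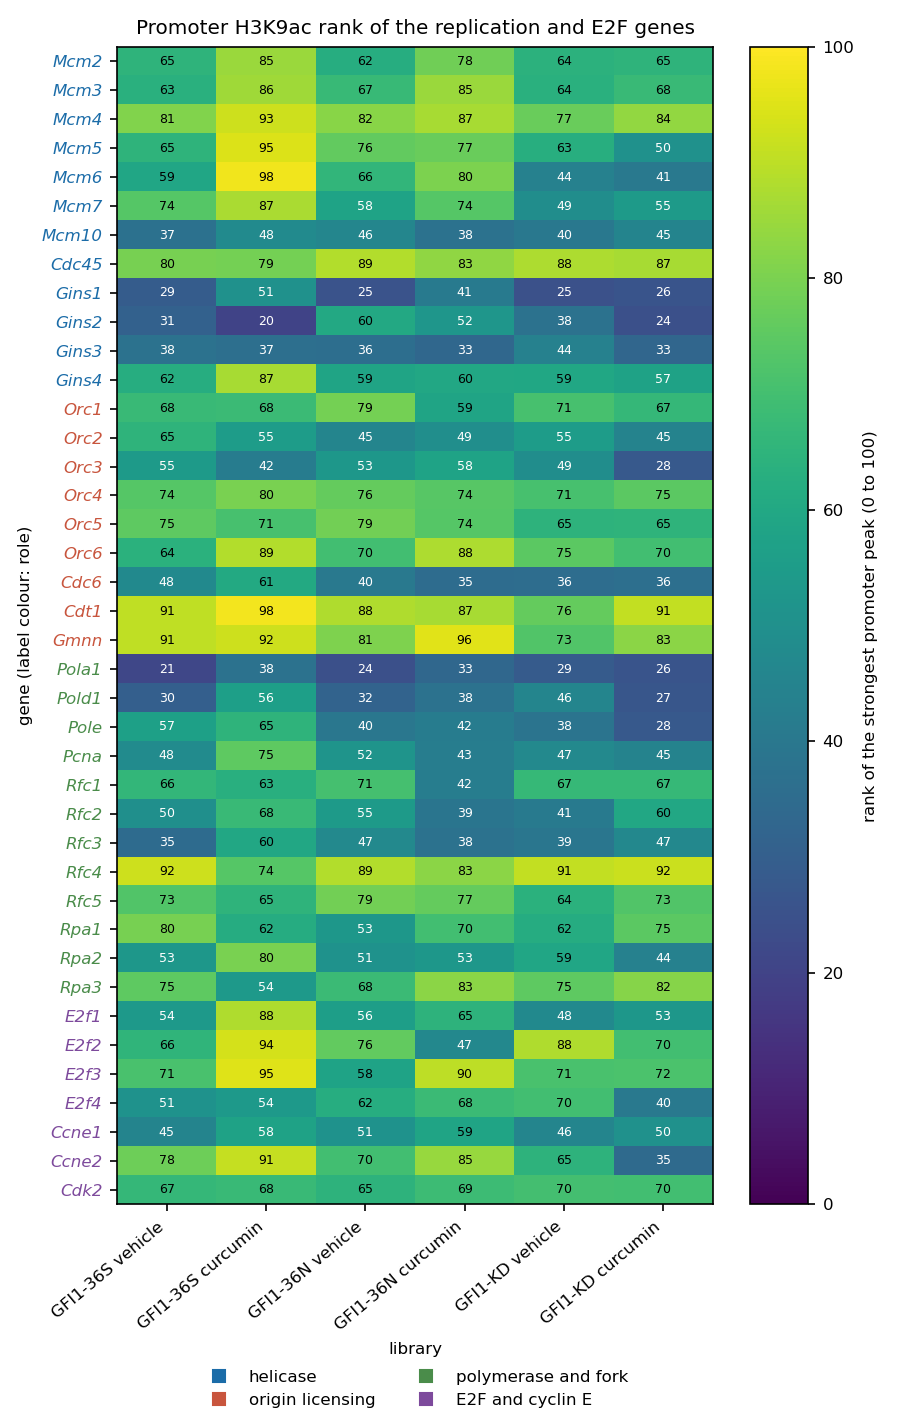
Rank of the strongest promoter peak (0 to 100, colour and printed value) of each of the 40 genes (rows, label colour by role) in each of the 6 libraries (columns), 1 library per group. The 6 Mcm genes at the top brighten from vehicle to curcumin in *GFI1-36S* mice, where *Mcm6* goes from 59.3 to 97.8.

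The peaks lay over and downstream of the start. The summit was downstream of the nearest TSS in 29 to 33 of the 40 genes, at a median of 166 to 225.5 bp, and 77.8% to 79.2% of the 9341 genes also had it downstream. The summit lay upstream of the nearest annotated start in all 6 libraries at *Ccne2* (693 to 780 bp), *Cdc45* (504 to 588 bp), *Mcm5* (410 to 447 bp), *Ccne1* (359 to 387 bp) and *Rfc4* (197 to 237 bp). With vehicle, the peaks of the replication genes were wider than those of the 9341 genes, with medians of 2400.5 against 1959 bp in *GFI1-36S*, 2194.5 against 1866 bp for *GFI1-36N* and 2701 against 2159 bp for *GFI1-KD*. With curcumin the peak was narrower at 39 of the 40 genes in *GFI1-36S* and at 39 in *GFI1-KD* mice, and wider at 24 in *GFI1-36N* mice. Of the 9341 genes, 95.5% and 90.1% were narrower in *GFI1-36S* and *GFI1-KD* mice and 62.2% were wider in *GFI1-36N* mice. The median width ratio of curcumin to vehicle was 0.666 at the replication genes and 0.601 at the 9341 genes in *GFI1-36S*, and 0.780 and 0.818 in *GFI1-KD* mice. At 1000 bp downstream of the most upstream TSS, a peak covered 97.5% of the replication genes with vehicle and 70.0% with curcumin in *GFI1-36S* mice. In *GFI1-36N* mice it covered 97.5% with vehicle and all of them with curcumin, and for *GFI1-KD* the shares were 97.5% and 82.5%. Coverage of the 9341 genes at this distance went from 72.7% to 40.1% in *GFI1-36S*, from 68.5% to 73.6% in *GFI1-36N* and from 73.4% to 58.6% in *GFI1-KD* mice.

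**Figure D2:**
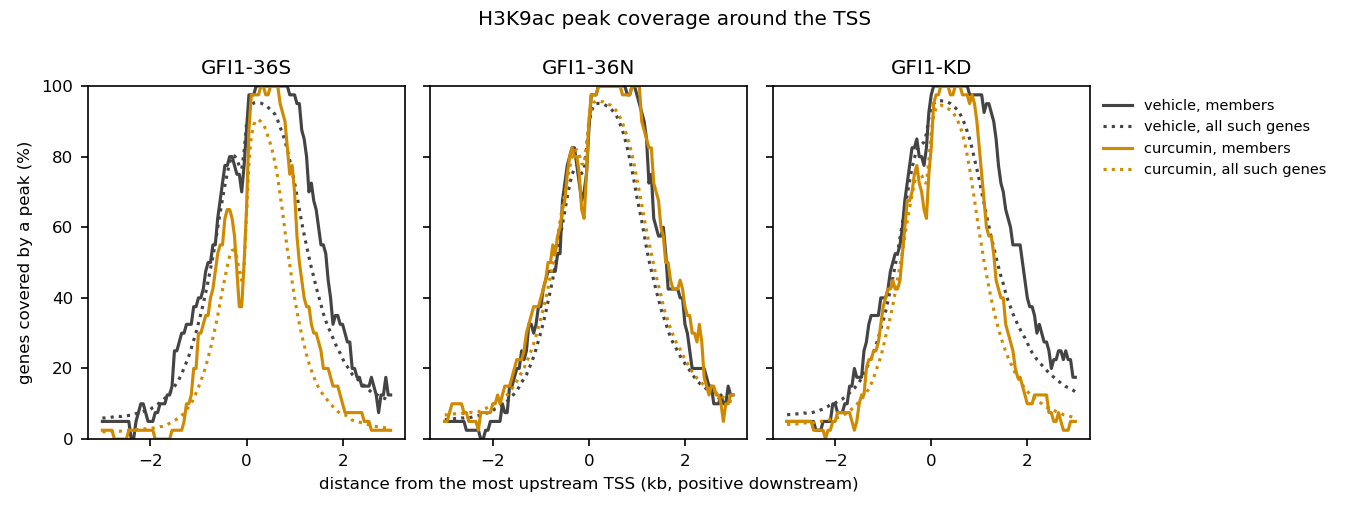
Percentage of genes covered by a peak (vertical axis) at each distance from the most upstream TSS (horizontal axis, kb), for the 40 replication and E2F genes (solid) and the 9341 genes with a promoter peak in every library (dotted), with vehicle in grey and curcumin in orange, 1 panel per genotype. The curcumin line falls inside the vehicle line downstream of the TSS in *GFI1-36S* and *GFI1-KD* but not in *GFI1-36N* mice, where 97.5% of the replication genes were covered at 1000 bp with vehicle and all with curcumin.

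In *GFI1-36S* mice, the replication genes ranked higher in the curcumin library while most other promoters ranked lower. Their median change was 12.0 points, against −6.61 over all 11608 genes with a peak in either library and −7.63 over the 2776 genes that started in the same range of ranks. The rank was higher by 10 points or more at 22 of the 40 genes (55.0%), which was the case for 15.0% of all genes. It was lower by as much at 5 (12.5%), against 41.4% of all genes, and at 3 when peaks were ranked by −log10 p, where *Orc3* and *Gins2* were no longer among them. In height relative to the median of all promoters, the interval lay above 1 at 20 of the 40 genes and below 1 at 0, against 16% and 13.4% of the 9495 promoters with a peak in both libraries, and the median ratio of the 40 genes was 1.31. The direction in height turns when summits are divided by the genome background instead. The median promoter then had a log2 ratio of −0.78, a ratio of 0.583, and 39 of the 40 replication genes were lower with curcumin, with a median ratio of 0.764.

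The Mcm ring was part of this shift, with all 6 of *Mcm2* to *Mcm7* higher by 10 points or more and all 6 height intervals above 1. *Mcm6* lies on chromosome 1 of mm10 from 128331590 to 128359664, minus strand, and its peak reached from 128357095 to 128360463 in the curcumin library, over the TSS and the start of the gene. It ranked 59.3 with vehicle and 97.8 with curcumin, the largest change of the 40 genes. Its summit held 164 and 188 fragments, a ratio of 2.06 (1.66 to 2.56) relative to all promoters. *Mcm6* was thus the 1 replication gene whose summit was also higher over the genome background. *Mcm5* ranked 64.9 and 94.7, with 141 and 132 fragments and a ratio of 1.69 (1.32 to 2.15). The other ring subunits changed by 11.3 points at *Mcm4* to 22.2 points at *Mcm3*, and *Mcm2* by 20.2 points, or 5.27 with a window of 3 kb. Of the genes that turn the ring into a helicase, *Gins4* changed by 24.5 and *Gins1* by 21.4 points, with ratios of 1.46 (1.13 to 1.89) and 1.52 (1.09 to 2.11). *Mcm10* changed by 10.8 points, but its interval included 1 (0.98 to 1.83). *Cdc45* and *Gins3* changed by −0.42 and −1.06 points.

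The activating E2F genes were higher too, by 23.9 points at *E2f3* to 33.8 at *E2f1*, against a median of 21.2 over the ring genes. *E2f1* ranked 54.2 with vehicle and 88.0 with curcumin, and its ratio was 1.63 (1.25 to 2.12). *E2f2* ranked 65.5 and 93.6, with a ratio of 1.62 (1.27 to 2.08), and *E2f3* ranked 71.3 and 95.2, with a ratio of 1.61 (1.27 to 2.04). The 3 activators therefore had close ratios. The *E2f2* summit lay 669 bp downstream of the TSS with vehicle and 105 bp with curcumin, so its ratio compares different positions. *E2f4*, which mostly represses its targets in resting cells, changed by 3.23 points and *Cdk2* by 1.12 points, and their intervals included 1. The cyclin E genes *Ccne1* and *Ccne2* changed by 12.6 and 13.5 points, with an interval above 1 at *Ccne2* only (1.05 to 1.71).

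At the fork, the genes went both ways. The rank was higher at *Rpa2* (52.9 and 80.0), at the clamp *Pcna* (48.4 and 75.1), at the polymerase delta subunit *Pold1* (30.2 and 56.4), at *Rfc3*, *Rfc2* and *Pola1*. It was lower by more than 10 points at *Rpa3* (75.3 and 54.3), *Rfc4* (92.4 and 73.5) and *Rpa1* (79.6 and 62.0), the largest falls in rank of the 40 genes. Their height intervals included 1, at 0.62 to 1.10, 0.65 to 1.08 and 0.66 to 1.15. The 3 subunits of the Rpa trimer thus did not share a direction of rank. Origin licensing was nearest to no change, with a median of 1.63 points over 9 genes. In this group the rank was higher by 10 points or more at *Orc6* (63.7 and 88.5) and *Cdc6* (47.6 and 60.9) and lower at *Orc3* (54.6 and 42.0). The ratio of *Cdt1* was 1.47 (1.18 to 1.83), and *Gmnn* stayed near the top of the list at 90.6 and 92.2.

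Cell type markers differed between the same 2 libraries. With vehicle, a promoter peak was present at 14 of 15 neutrophil, 11 of 12 stem and progenitor, 12 of 12 erythroid, 11 of 11 monocyte and macrophage, 7 of 14 T-cell and 1 of 11 B-cell markers. With curcumin, the numbers were 0, 2, 2, 2, 13 and 0 in the same order. The median rank of the T-cell markers was 0.174 with vehicle and 27.8 with curcumin, and that of the stem and progenitor markers 40.2 and 0, with *Kit*, *Gata2* and *Cd34* at 0. The T-cell receptor subunits *Cd3d*, *Cd3e* and *Cd3g* had a peak with curcumin alone. The part of these marker differences in the ranks of the replication genes was not tested, and with 1 library per group it cannot be told apart from treatment.

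**Figure D3:**
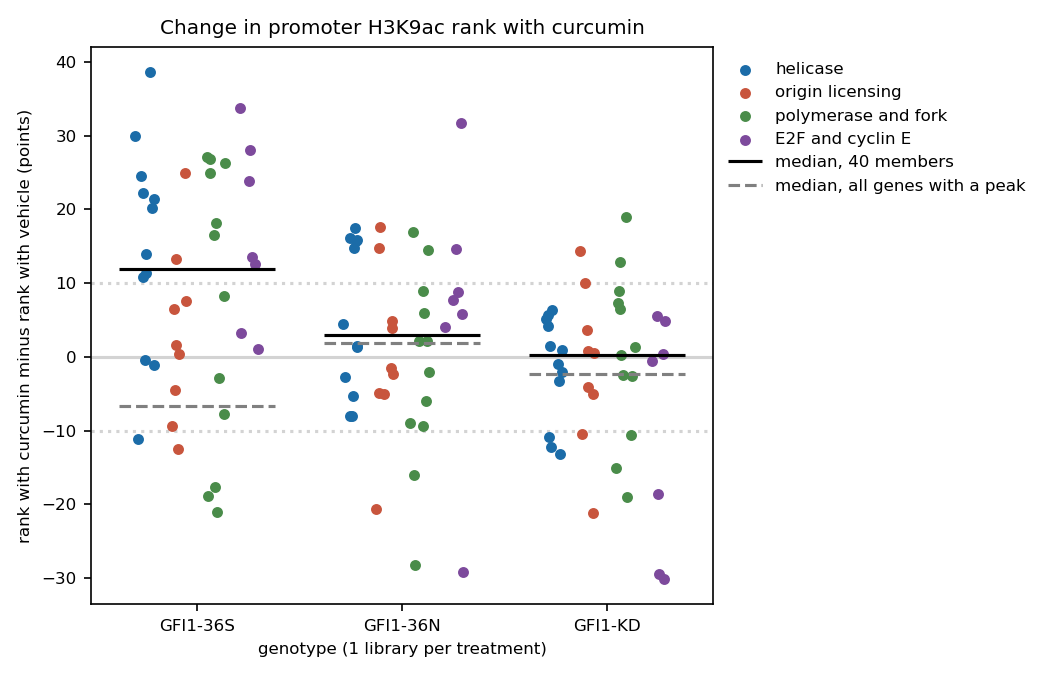
Rank with curcumin minus rank with vehicle (vertical axis, points) for each of the 40 genes (points, coloured by role) in each genotype, with the median of the 40 genes (black line) and of all genes with a promoter peak (dashed grey line). Dotted lines mark 10 points in either direction. The black line lies at 12.0 and the grey line at −6.61 in *GFI1-36S* mice, with 3.01 and 1.89 in the *GFI1-36N* pair and 0.31 and −2.34 in the *GFI1-KD* pair.

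In *GFI1-36N* mice, replication genes had a median change close to that of all promoters, and the Mcm ring was again on the higher side. Over the 40 genes the median was 3.01 points, and over all 12022 genes 1.89. The rank was higher by 10 points or more at 11 of the 40 (27.5%), against 19.3% of all genes, and lower at 4, against 11.3%. With equal numbers of top peaks, 7 genes were lower. The height interval was above 1 at 1 gene and below 1 at 2, against 7.4% and 7.21% of 11112 promoters, and the median ratio was 1.03. Over the genome background the summits of all promoters were higher by 0.32 on the log2 scale, and 37 of the 40 genes were higher, so a height statement here too holds only relative to other promoters.

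All 6 ring genes had a higher rank with curcumin, as did 60.1% of all genes, and 4 of them were higher by 10 points or more. *Mcm3* ranked 67.5 with vehicle and 85.0 with curcumin, with 149 and 179 fragments. *Mcm2* changed by 16.1 points, which was 3.54 with a window of 3 kb, *Mcm7* by 15.7 and *Mcm6* by 14.8 points, and *Mcm4* and *Mcm5* by 4.40 and 1.27. The 6 height intervals all included 1, with ratios of at most 1.20. *Gins1* was the 1 gene with an interval above 1, at 25.5 and 41.3 in rank and a ratio of 1.40 (1.03 to 1.91). *Orc6* ranked 69.9 and 87.5, and *Gmnn* 80.8 and 95.6, with intervals that included 1. The largest change in rank was at *E2f3*, with 58.2 and 89.9, but its summit held 160 and 192 fragments, a ratio of 1.19 (0.96 to 1.48). *E2f2* went the other way, with ranks of 75.9 and 46.8, with 163 and 116 fragments and a ratio of 0.71 (0.55 to 0.90). Its summit lay 619 bp downstream of the TSS with vehicle and 84 bp with curcumin, so this ratio compares different positions. The activating E2F genes thus did not move together in these mice, and *E2f1* changed by 8.79 points. Lower ranks were also found at *Rfc1* (70.5 and 42.3), *Orc1* (79.1 and 58.5) and *Rfc2* (54.7 and 38.7). Of these, *Orc1* had an interval below 1 (0.62 to 0.99). Its promoter is shared with *Prpf38a*. At *Rfc1* the local background with curcumin was 5.70, against 4.78 for the genome, and the height interval included 1.

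A set of 8 genes was higher by 10 points or more in both *GFI1-36S* and *GFI1-36N* mice, which is 8 of the 22 counted in the former and 8 of the 11 in the latter. They were *Mcm2*, *Mcm3*, *Mcm6*, *Mcm7*, *Gins1*, *Orc6*, *E2f3* and *Ccne2*. Over all 12267 genes with a peak in any of these 4 libraries, 3.67% were higher in both.

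In *GFI1-KD* mice, the replication genes showed little median change in rank, while *E2f2*, *E2f4* and *Ccne2* were lower. The median change was 0.31 points, against −2.34 over all 11908 genes. The rank was higher by 10 points or more at 4 of the 40, against 9.47% of all genes, and lower at 11 (27.5%), against 20.6%. The height interval was above 1 at 3 genes and below 1 at 4, against 7.59% and 7.87% of 10965 promoters, and the median ratio was 1.02. These shares lay near those of all genes. The summits of all promoters differed by −0.18 on the log2 scale over the genome background, and 33 of the 40 replication genes were lower on that scale.

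The lowest changes belonged to *Ccne2* and *E2f4*. *Ccne2*, on chromosome 4 from 11191354 to 11204779, plus strand, ranked 64.7 with vehicle and 34.7 with curcumin, with 192 and 91 fragments and a ratio of 0.66 (0.51 to 0.86). *E2f4* ranked 69.7 and 40.2, with 203 and 100 fragments and a ratio of 0.69 (0.54 to 0.88). *E2f2* ranked 88.1 and 69.6, with a ratio of 0.80 (0.65 to 0.99) between summits 614 and 105 bp downstream of the TSS. The fourth gene with an interval below 1 was *Pold1*, which ranked 45.6 and 26.6 with a ratio of 0.72 (0.54 to 0.96). *E2f1*, *E2f3*, *Ccne1* and *Cdk2* changed by 5.60, 0.32, 4.89 and −0.57 points, so the E2F and cyclin E module did not move as a whole. *E2f2* also had the widest peak of all 240 measured here with vehicle, 9657 bp, and 3322 bp with curcumin.

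None of the 6 ring genes was higher by 10 points, and *Mcm5* was lower, at 62.7 and 50.5. Higher ranks were found at the clamp loader subunit *Rfc2* (40.9 and 60.0), with a ratio of 1.34 (1.04 to 1.71), at *Cdt1* (76.5 and 90.8), with a ratio of 1.23 (1.01 to 1.5), at *Rpa1* (61.8 and 74.7) and at *Gmnn* (72.7 and 82.7). The height intervals of *Rpa1* and *Gmnn* included 1, at 0.94 to 1.46 and 0.93 to 1.40, and *Gmnn* only just passed the cut of 10 points. Higher ranks were about as frequent among the replication genes as among all genes (9.47%). The rises of *Cdt1* and *Gmnn* are therefore not read as a joint change. *Orc3* ranked 49.2 and 28.0, with a ratio of 0.89 (0.69 to 1.13), at a promoter shared with *Rars2*. *Gins2* gave opposite answers by rank and by height. It ranked 37.7 and 24.5, yet its summit held 145 and 144 fragments, a ratio of 1.39 (1.10 to 1.76), and the local background at its summit was 2.21 times the genome background with curcumin. Fold enrichment divides by that local background. *Gins2* and *Orc3* were the only genes whose local background exceeded the genome background by at least 1.5 times, in the curcumin libraries of *GFI1-36S* and *GFI1-KD* mice. Markers moved both ways in this pair. Erythroid and neutrophil markers with a promoter peak numbered 12 and 14 with vehicle and 5 and 9 with curcumin, with median changes of −15.5 and −11.1 points. Stem and progenitor markers with a peak numbered 10 and 12, and 10 of the 11 monocyte and macrophage markers ranked higher, with a median of 16.2 points. The part of these markers in the values of the replication genes was not tested.

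**Figure D4:**
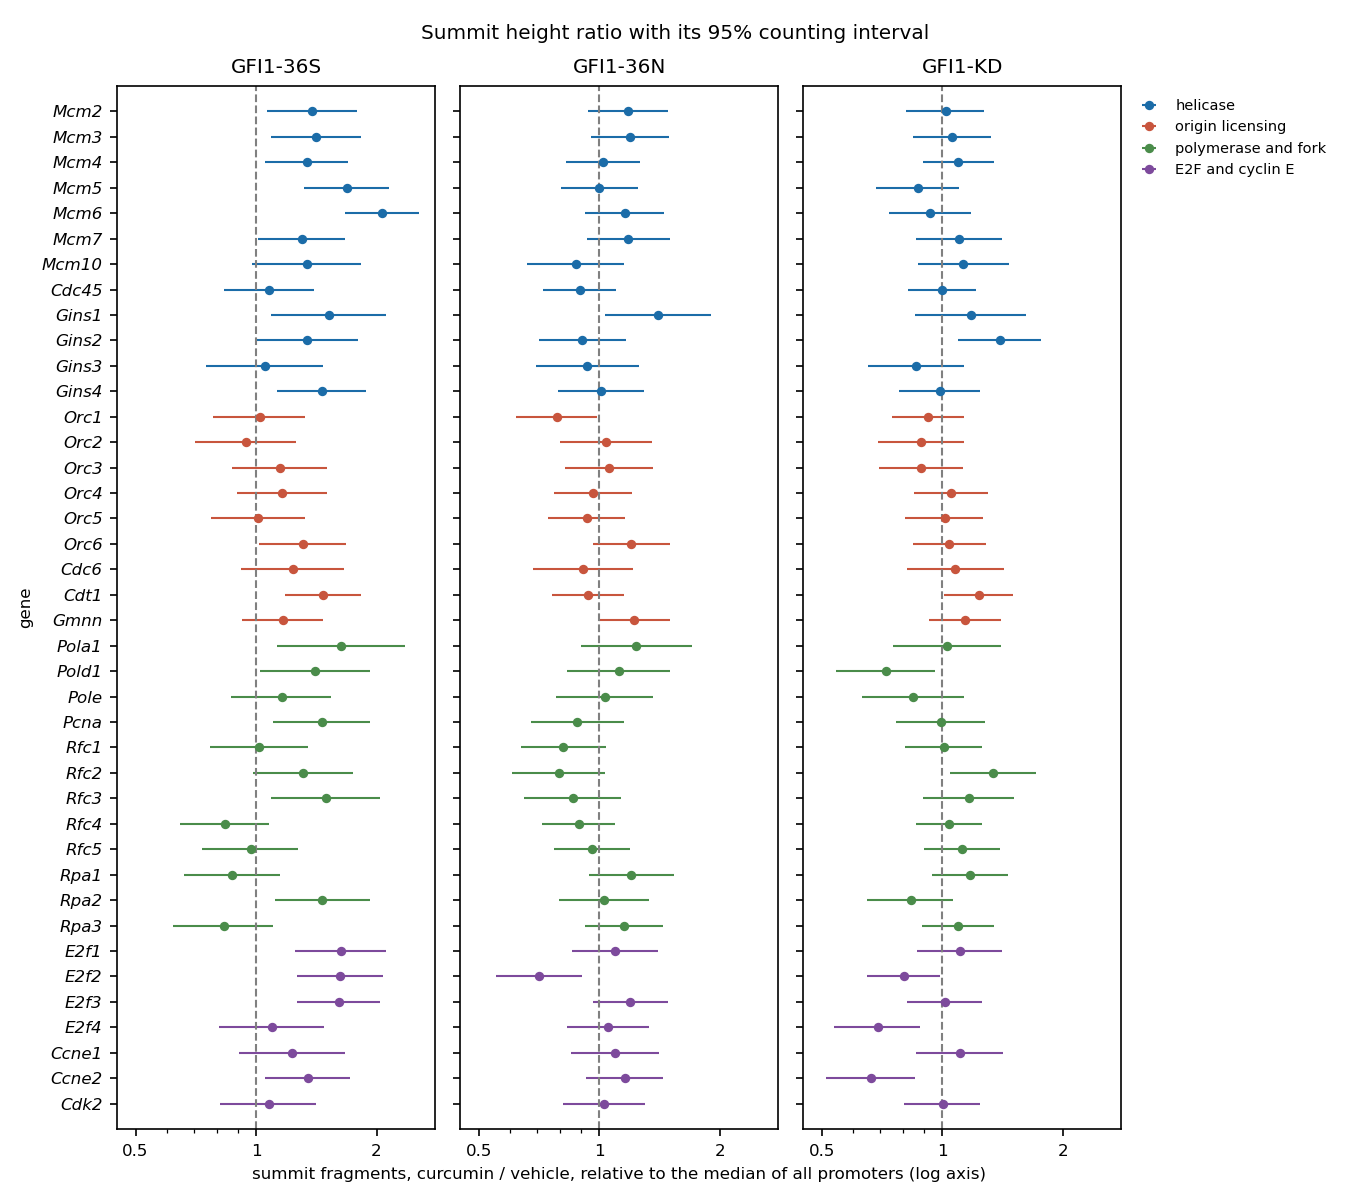
Ratio of summit fragments, curcumin to vehicle, relative to the median of all promoters (horizontal log axis) for each of the 40 genes (rows, coloured by role), with its 95% exact counting interval, 1 panel per genotype. In *GFI1-36S* mice 20 intervals lie to the right of 1 and 0 to the left, with *GFI1-36N* 1 and 2, and with *GFI1-KD* 3 and 4.

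The change with curcumin was also set against that of another genotype, gene by gene. The change in *GFI1-36N* minus that in *GFI1-36S* mice had a median of −5.86 points over the 40 genes and of 8.69 over 11363 genes. With the *GFI1-36S* treatments exchanged, as the file names have them, the median over the 40 genes was 9.73 points. The difference was lower by 10 points or more at 14 of the 40 genes and higher at 6, against 15.0% and 47.1% of all genes. Between *GFI1-KD* and *GFI1-36S* mice the median difference was −9.22 points, against 3.90 over 11277 genes, with 19 genes lower and 4 higher, against 20.4% and 35.9%, and it was 11.9 points with the exchange. Between *GFI1-KD* and *GFI1-36N* mice it was −4.72 points, against −4.39 over 11533 genes, with 16 lower and 8 higher, against 33.5% and 14.2%. The replication genes stood off from all genes in the comparisons with the *GFI1-36S* pair and lay near all genes in the comparison without it. Markers differed between vehicle and curcumin in every pair. In *GFI1-36N* mice, 9 of 11 monocyte and macrophage markers ranked lower with curcumin and 2 higher (median −9.81 points). Neutrophil markers there went the other way, with 9 higher and 3 lower (7.36). The part of the markers in these differences was not tested. 

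With vehicle, the genotypes were compared at the same promoters. The median difference in rank over the 40 genes was 1.71 points for *GFI1-36N* minus *GFI1-36S* mice, with 6 genes higher and 5 lower by 10 points or more, against 15.3% and 17.5% of all genes. For *GFI1-KD* minus *GFI1-36S* the median was −1.50 points, with 4 higher and 9 lower, against 16.4% and 9.97%. If the file names of the *GFI1-36S* pair are right, these medians are −12.1 and −12.8 points. For *GFI1-KD* minus *GFI1-36N* it was −3.83 points, with 3 higher and 7 lower, against 18.6% and 10.7%. Each library entered 2 of these 3 comparisons. Markers differed between them as well. All 12 erythroid markers were lower in *GFI1-36N* than in *GFI1-36S* mice (median −11.8 points) and higher with *GFI1-KD* than with *GFI1-36N* (14.9), and 10 of 12 stem and progenitor markers were lower with *GFI1-KD* than with *GFI1-36S* (−13.3). Their part in the values of the replication genes was not tested. With the *GFI1-36S* treatments exchanged, all other *GFI1-36S* values and counts given here would come from the other library. That library had a peak at 2 of 12 erythroid and 2 of 12 stem and progenitor markers. Neither marker contrast with *GFI1-36S* would then hold. It also ranked *E2f2* at 93.6, above the 88.1 with *GFI1-KD*. In both comparisons of *GFI1-KD*, the genes at the lower end included ring genes. *Mcm7* ranked 73.6 in *GFI1-36S*, 57.8 in *GFI1-36N* mice and 48.9 with *GFI1-KD*, with a height ratio of 0.73 (0.58 to 0.92) for *GFI1-KD* to *GFI1-36S*, at a promoter shared with *Ap4m1*. *Mcm6* ranked 59.3, 65.7 and 43.8, but its height intervals included 1 in both comparisons of *GFI1-KD*. Its ratio was 0.83 (0.67 to 1.03) for *GFI1-KD* to *GFI1-36S* and 0.94 (0.75 to 1.17) for *GFI1-KD* to *GFI1-36N*. *E2f2* was at the higher end, with 65.5, 75.9 and 88.1 and a ratio of 1.32 (1.07 to 1.63) for *GFI1-KD* to *GFI1-36S*. *Rpa1* ranked 79.6 in *GFI1-36S* and 52.9 in *GFI1-36N* mice, with a ratio of 0.76 (0.60 to 0.96). Of the 40 genes, 6 had a height interval that excluded 1 in 1 of the 3 comparisons, with 1 gene below for *GFI1-36N* to *GFI1-36S*, 1 above and 3 below for *GFI1-KD* to *GFI1-36S*, and 1 below for *GFI1-KD* to *GFI1-36N*. Of all promoters, 6.87% lay above and 6.79% below in the first comparison, 7.21% and 7.02% in the second, and 7.2% and 5.85% in the last.

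Some of these peaks cannot be assigned to 1 gene. A coding gene on the opposite strand had its TSS within 1 kb of *Cdc45* (*Ufd1*), *Mcm4* (*Prkdc*), *Mcm7* (*Ap4m1*), *Orc1* (*Prpf38a*), *Orc3* (*Rars2*), *Orc4* (*Mbd5*), *Orc6* (*Vps35*), *Pole* (*Pxmp2*), *Rpa1* (*Smyd4*) and *Rpa3* (*Umad1*). These were 10 of the 40 genes, and 21.1% of the 9341 genes had such a neighbour. A noncoding gene on the opposite strand had its TSS 43 to 227 bp from that of *Gins2*, *Orc2*, *Orc5*, *Pcna*, *Rfc4* and *Rfc5*. The share of all genes with a noncoding neighbour is not given here.

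Other genes of S phase and the E2F network were counted in the same way. A promoter peak was present in at least 1 library of each pair at 65 of 67 such genes, and *Rrm2* and *Topbp1* had none in any library. Their median change was 5.57 points for *GFI1-36S*, 2.38 for *GFI1-36N* and −0.74 for *GFI1-KD*, against −6.61, 1.89 and −2.34 over all genes. In the same order 27, 16 and 9 were higher by 10 points or more, against 15.0%, 19.3% and 9.47% of all genes, and 18, 7 and 12 lower, against 41.4%, 11.3% and 20.6%. The *GFI1-KD* counts of 9 and 12 of 65 lay near the shares of all genes. Some of these genes passed 10 points in both *GFI1-36N* and *GFI1-KD* mice. Over all 12397 genes with a peak in any of these 4 libraries, 2.22% were higher in both and 2.6% lower in both. The genes below are therefore named singly and not read as a joint change. *Dnmt1*, the maintenance DNA methyltransferase, and the G1 kinases *Cdk4* and *Cdk6* were higher in both, with *Cdk4* at 54.1 with vehicle and 74.1 with curcumin for *GFI1-36N* and at 50.7 and 61.2 for *GFI1-KD*. *Clspn*, the checkpoint adaptor, and *Ccnd2*, a D-type cyclin, were lower in both, and *Ccnd2* went from 47.1 to 5.39 in *GFI1-KD* mice. *Dut* and *Tk1*, enzymes of thymidine nucleotides, were higher in *GFI1-36N* mice but lower in *GFI1-KD* mice. The CDK inhibitor *Cdkn1a* did the opposite, with 84.7 and 50.6 in the *GFI1-36N* pair and 61.5 and 90.2 in the *GFI1-KD* pair. *Ccnd1* had a peak in only 1 library of the *GFI1-36S* pair, the curcumin one, and of the *GFI1-KD* pair, the vehicle one.

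Genes of G2 and M phase had lower ranks with curcumin in the *GFI1-KD* pair. All 23 listed had a promoter peak in every library. With vehicle their median rank was 70.1 in *GFI1-KD*, 52.5 in *GFI1-36S* and 64.5 in *GFI1-36N* mice. With curcumin it was 56.7 in *GFI1-KD*, 65.4 in *GFI1-36S* and 64.8 in *GFI1-36N* mice. The *GFI1-KD* change thus started from the highest of the vehicle medians, and the part of that single library was not tested. In *GFI1-KD* mice all 23 ranked lower with curcumin, 15 of them by 10 points or more, against 20.6% of all genes. Their median change was −13.9 points, against 0.31 for the replication genes, and 37.1% of all genes ranked higher in this pair. All 12 erythroid markers were lower in the same libraries too, 10 of them by 10 points or more, and their part in the G2 and M phase values was not tested. *Cdk1*, the mitotic kinase, ranked 74.4 and 49.2, and its cyclin *Ccnb1* 70.6 and 44.7. *Cenpf*, a kinetochore protein, ranked 52.3 and 25.1. In *GFI1-36S* and *GFI1-36N* mice the medians were 1.43 and 1.82 points, against −6.61 and 1.89 over all genes. Of the 23, 6 and 2 were higher by 10 points or more, against 15.0% and 19.3% of all genes, and 3 and 1 lower, against 41.4% and 11.3%.

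The replication genes with and without the E2F letters were last set side by side. In *GFI1-36S* mice the 15 genes with a match had a median change of 16.5 points and the 16 without one of 3.00, and the rank was higher by any amount at 13 and 8 of them, against 30.9% of all genes. For *GFI1-36N* the medians were 4.08 and 0.058, and for *GFI1-KD* −2.55 and 1.13. *E2f1*, which held none of these letters in its window, changed by 33.8 points in *GFI1-36S* mice. The split is a description, and no test of it was made.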

How the data were processed

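H3K9ac ChIP-seq of frozen BM cells was analysed in 6 libraries, 1 per genotype and treatment. The input and rabbit IgG samples were not analysed here. The authors trimmed the reads with Trim Galore, aligned them to mm10 with BWA-MEM, called peaks per library with MACS2 and removed black list regions. The threshold and the control of each list are not given in the sources used here. The deposited fold enrichment is a ratio of summit to local background signal. The −log10 p and −log10 q values, the integer score and the summit offset are deposited as the authors' peak caller gave them. Values were not normalized between libraries.

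Promoters were windows of 1000 bp to either side of the TSSs of the basic GENCODE M21 transcripts of protein-coding genes, with an overlap of at least 1 bp. The strongest peak per gene was ranked by fold enrichment, a gene without a peak received 0, and 10 points made a call. Fragments at each summit were recovered from fold enrichment and −log10 p for 100.0% of peaks. A match was accepted within 0.002 in −log10 p plus an allowance for the rounding of fold enrichment. The medians were 72 to 164 fragments per promoter summit. Intervals were exact conditional binomial (Clopper-Pearson, 95%). With the smallest summit of 58 fragments, the interval of a ratio reached from 0.75 to 1.47 around 1.05 (*Gins3*).

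Python 3.11.15, numpy 2.4.6, scipy 1.17.1, pandas 2.3.3 and matplotlib 3.10.9 were used, and the steps were tested on simulated data. Each library was placed in its group by its label. No test across mice was possible. The alternatives were ranks by −log10 p, a minimum −log10 q of 5, lists cut to 20354 peaks, a 3 kb window, summits inside the promoter, peaks in both libraries, heights over the genome background, fold enrichment in place of fragments, and exchanged *GFI1-36S* treatments. The genes and lists were chosen with earlier results of these data known. Every member could be named, with values per library for the 3 largest rises and falls in each curcumin comparison and for the 3 highest and lowest mean ranks. Other pathway genes were named when past 10 points in both *GFI1-36N* and *GFI1-KD* mice or when a peak was in only 1 library of a pair. Genes of G2 and M phase, and further members given with values per library, were picked after their values were seen. A gene of the wider S phase list is counted there but not reported by name here.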

Additional observations from a re-analysis of the deposited data

Results flagged for a closer look

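At 8 of the 40 genes the curcumin change was 10 points or more in opposite directions in 2 genotypes (20.0%), which gave 12 such pairs, and 18.5% of 11192 genes did the same. With 1 library per group the differences were not tested. The largest involved *E2f2*, which changed by 28.1 points in *GFI1-36S* and by −29.1 in *GFI1-36N* mice, a difference of −57.2, and by −18.5 in *GFI1-KD* mice, a difference from *GFI1-36S* of −46.6. *Ccne2* changed by −30.1 points in *GFI1-KD* mice, which differed by −43.6 from *GFI1-36S* and by −44.7 from *GFI1-36N* mice. The other differences of *GFI1-KD* from *GFI1-36S* mice were −45.2 at *Pold1*, −42.1 at *Rpa2*, −42.1 at *Mcm5* and 30.6 at *Rpa1*. *GFI1-36N* differed from *GFI1-36S* mice by 35.6 at *Rpa3*, by 34.6 at *Rpa1* and by −34.1 at *Rfc2*. *Rfc2* also differed by 35.0 between *GFI1-KD* and *GFI1-36N* mice. Of the 12 pairs, 10 included the *GFI1-36S* libraries, whose treatments are named the other way round in the files. Marker genes differed between vehicle and curcumin in every genotype. The part of either in these differences was not tested.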

How the results depend on the processing

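The limits are 1 library per group, whole BM of mixed cells, and labels and file names that disagree for *GFI1-36S*. No paired analysis was possible because each group held 1 library and the labels give no shared replicate numbers. Of 109 summary values under the alternatives, 95 were counted as kept. A median was kept when it fell within the 95% binomial interval of the reported median. Such an interval can span both signs, so a kept median can differ in direction. A count was kept when it lay within 1.5 times of the reported one. With the *GFI1-36S* treatments exchanged, the median change in that pair was −12.0 points, with 5 genes higher and 22 lower by 10 points. The vehicle medians were then −12.1 for *GFI1-36N* and −12.8 for *GFI1-KD* minus *GFI1-36S*, the differences of the change 9.73 and 11.9 points, and the median log2 height ratio −0.39, the last alternative being added after the data were seen. Over the genome background the median log2 height ratio was −0.39 for *GFI1-36S*, 0.36 for *GFI1-36N* and −0.14 for *GFI1-KD*, which follows from the other scale. Genes lower by 10 points numbered 3 in *GFI1-36S* mice with ranks by −log10 p, and 3 in *GFI1-36S* and 7 in *GFI1-36N* mice with equal numbers of top peaks, and the cause was not tested. Of 720 values of single genes, 714 stayed within 10 points of the value reported. Of these, the 120 values for peaks in both libraries could not change, since each replication gene had a promoter peak in every library. Summary values of the replication genes under that alternative could not change either. Both totals therefore include values that were no test of the processing. With ranks by −log10 p, *Gins2* turned to 4.30 points in *GFI1-36S* and 4.75 in *GFI1-KD* mice. Within 3 kb, *Mcm2* changed by 5.27 points in *GFI1-36S* and 3.54 in *GFI1-36N* mice.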
